A study of Mus musculus with 46 samples.

Results

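The comparison asked whether mouse embryonic fibroblasts (MEFs) that lack ATF4 answer borrelidin as wild type MEFs do, gene by gene, over all 46 libraries of the series. Borrelidin inhibits threonyl-tRNA synthetase, the enzyme that loads threonine onto its tRNA. Wild type MEFs and an ATF4 KO line were held for 7 h in 600 nM borrelidin, given in DMSO at 1% v/v, or in 1% v/v DMSO alone as vehicle. There were 11 wild type vehicle, 12 wild type borrelidin, 11 ATF4 KO vehicle and 12 ATF4 KO borrelidin libraries, which the labels call biological replicates. The wild type MEFs were purchased and the ATF4 KO line was made in house with CRISPR-Cas9, so loss of ATF4 and any other difference between these cell lines cannot be told apart.

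ATF4 is a transcription factor whose mRNA is translated better when uncharged tRNA or other stress slows general translation through phosphorylation of eIF2. It is known to bind genes for amino acid supply, tRNA charging and autophagy. A gene whose rise needs ATF4 would show a larger response in wild type than in ATF4 KO cells, whereas a gene driven by another route would respond alike in both.

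The members were the genes inside 5 segments of the mouse genome (GRCm38), 109.5 Mb in all, on chromosomes 4, 6, 9, 15 and 18. Only there do the identifiers of the deposited table match their rows, so rows elsewhere are counted without names. The segments hold 1370 identifiers, of which 390 passed the filter on low counts and 980 did not, among 8986 rows tested in all. Of the 390 there were 327 protein-coding genes, 25 pseudogenes and 38 of other kinds. The row of Atf4 itself lies outside the segments, and the knockout was not checked here. Reads counted in genes ranged from 2047362 to 3467765 per library, and from 175711 to 303361 inside the segments. Of the listed fibroblast markers 4 were tested, and Cav1 (248 to 804 CPM, counts scaled to 1000000 counted reads of a library), Tpm2 (357 to 811 CPM), Sdc2 (199 to 474 CPM) and Zeb1 (87.9 to 243 CPM) were present in every library. Of the markers of other cell types, Pax5, a B cell transcription factor, lay between 0 and 1.33 CPM in wild type and between 4.27 and 39.3 CPM in ATF4 KO libraries, and Cd72, of B cells, between 66.8 and 150 CPM in all libraries. The neural genes Kcnd2 and Ptprz1 had at most 13.6 CPM, and no marker of epithelial or endothelial cells was tested. Of these lists, Zeb1 alone had a called difference of responses (-0.40), which was 0.12 and not called without the 14 libraries that stood apart. In bulk RNA more cells of a type and more RNA per cell cannot be told apart, and the part of other cell types in the results was not tested.

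Libraries stood apart within 3 of the 4 groups. On the second principal component, which held 21.9% of the variance, 8 of 11 wild type vehicle, 3 of 11 ATF4 KO vehicle and 3 of 12 ATF4 KO borrelidin libraries lay below a gap wider than 50% of the range of their group, and 0 of 12 wild type borrelidin libraries did. With all libraries the wild type response thus compared 12 borrelidin libraries, all above the gap, with 8 vehicle libraries below it and only 3 above it. The counts are therefore given for all 46 libraries, without these 14 libraries and with the library set as a block, which are called the 3 fits below, and the differences of single genes are given again where they moved by over 1.5 times or lost their call. The sets were cut on the 500 most variable rows of these same counts. The paper describes its second component as separating libraries by drug treatment. Leaving out or blocking the sets can therefore take away part of the wild type response itself. A call kept in the 3 fits is thus no independent support for a difference.

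The response of a gene is the log2 fold change from vehicle to borrelidin, and the difference of responses is the wild type response minus the ATF4 KO response. It is positive where a gene rose more, or fell less, in wild type. In edgeR's quasi-likelihood test with Benjamini-Hochberg adjustment over all 8986 rows, 171 of the 390 segment genes (43.8%) had a difference of responses at adjusted p under 0.05, against 33.6% of all rows. It was positive for 111 genes and negative for 60, where 16.5% and 17.1% of all rows were called in these directions. Borrelidin changed 234 segment genes in wild type, 164 up and 70 down, against 59.4% of all rows. It changed 168 in ATF4 KO, 102 up and 66 down, against 30.3% of all rows. The median difference was 0.14 over the segment genes and -0.05 over all rows. With scaling factors taken from the segment genes alone these medians were -0.01 and -0.20, and 100 differences were positive and 77 negative.

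The 390 genes were sorted by these tests. In 96 the response was called in wild type and larger there, against 23.3% of all rows, which is close to the 24.6% of the segment genes. In 44 it was called in ATF4 KO and larger there, against 6.33% of all rows. In 24 both responses were called with opposite signs, against 2.68% of all rows. In 67 both were called with the same sign and the difference was not, against 13.5% of all rows, and these are called shared. Of the rest, 7 had a called difference with neither response called, 68 had a call in one line only and 84 had no call. A shared call does not show that the responses were equal.

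The class of most genes changed when the libraries that stood apart were left out or blocked. Without the 14 libraries 75 segment genes had a called difference, 39 positive and 36 negative, against 9.68% of all rows. That fit kept only 3 of 11 wild type vehicle libraries, which also lowers the power to call a gene. The part of this in the lost calls was not tested. With the library set as a block 120 did, 52 positive and 68 negative, against 20.4% of all rows. A difference was called with the same sign in all 3 fits for 50 genes, 30 positive and 20 negative. The matching share over all rows was not counted, so these 50 have no background to be set against. The same class in all 3 fits was held by 11 of the 96 genes with the larger wild type response, 15 of the 44 with the larger ATF4 KO response, 5 of the 24 opposite and 17 of the 67 shared genes. Of the 96, 52 had no call at all without the 14 libraries. With scaling factors from the segment genes alone 86 of the 96, 32 of the 44, 15 of the 24 and 50 of the 67 kept their class.

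**Figure D1:**
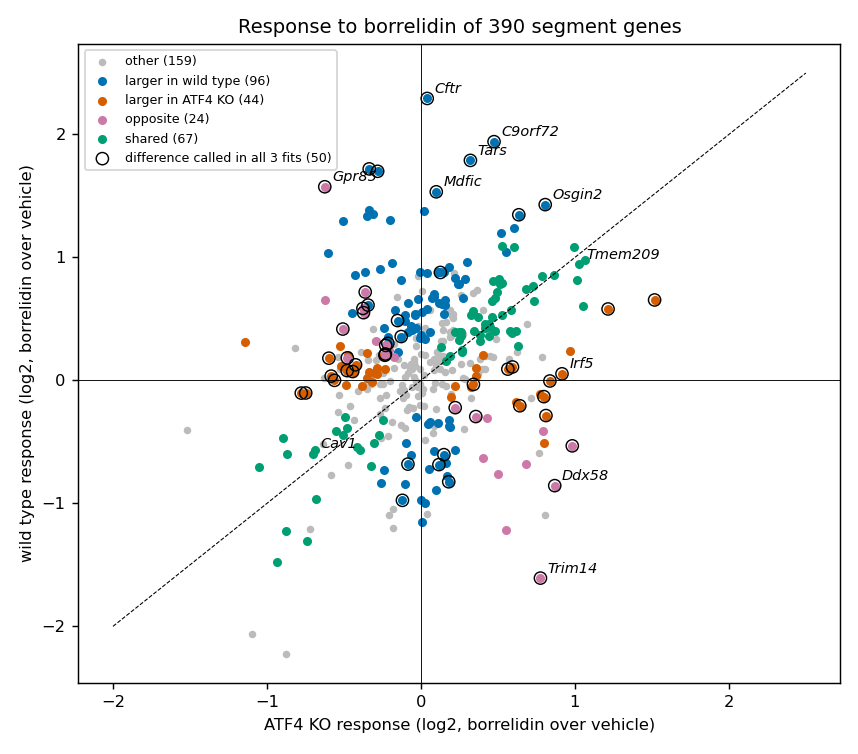
Response to borrelidin in wild type (vertical) against ATF4 KO (horizontal), each as log2 of borrelidin over vehicle, for the 390 tested segment genes, coloured by class, with the dashed line where both are equal. Black rings mark the 50 genes whose difference was called with the same sign in all 3 fits. Tars, Mdfic and C9orf72 sit high above the dashed line, and Ddx58 and Trim14 lie at the lower right.

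Tars, Mdfic and C9orf72 rose 2.90- to 3.84-fold in wild type and at most 1.39-fold in ATF4 KO. Tars, on chromosome 15 from 11382301 to 11399665, encodes threonyl-tRNA synthetase, the target of borrelidin. Its level in wild type vehicle was 730 CPM at the lowest, 816 at the median and 1338 at the highest library, and in wild type borrelidin 3006, 3181 and 3488 CPM. The ATF4 KO libraries held 471, 635 and 686 CPM with vehicle and 579, 811 and 852 CPM with borrelidin. The wild type groups did not overlap, whereas the ATF4 KO groups did. Tars rose 3.46-fold in wild type (log2 1.79 ± 0.09, SE) and 1.25-fold in ATF4 KO (0.32 ± 0.09, adjusted p = 0.003). The difference was 1.47 ± 0.12 (95% interval 1.22 to 1.71, edgeR adjusted p = 1.3e-13), and it was 1.02 without the 14 libraries and 1.20 with the block. Under vehicle Tars was already higher in wild type (gap 0.58 on the log2 scale), and under borrelidin the gap was 2.05.

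Mdfic, on chromosome 6 from 15720661 to 15802169, encodes a protein with a MyoD family inhibitor domain. Its level was 111, 128 and 161 CPM (lowest, median, highest) in wild type vehicle and 293, 391 and 448 CPM in wild type borrelidin. Without ATF4 it was 107, 154 and 173 CPM with vehicle and 135, 163 and 187 CPM with borrelidin. All 12 wild type borrelidin libraries lay above every other library. The wild type response was 1.53 ± 0.07, that of ATF4 KO 0.10 ± 0.07 (adjusted p = 0.31), and the difference 1.43 ± 0.10 (1.23 to 1.64, edgeR adjusted p = 1.1e-15). Without the 14 libraries it was 1.27. Tars and Mdfic were the only 2 segment genes whose difference passed 1e-10, against 0.501% of all rows.

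C9orf72, a regulator of autophagy and vesicle traffic on chromosome 4 from 35191285 to 35226175, went from 45.1, 57.7 and 82.8 CPM in wild type vehicle to 188, 229 and 294 CPM in wild type borrelidin. Without ATF4 it went from 51.6, 68.0 and 79.3 CPM to 57.2, 97.7 and 117 CPM. The response was called in both lines (1.94 and 0.47), and the difference was 1.47 ± 0.16 (1.15 to 1.78, edgeR adjusted p = 3.9e-10). Without the 14 libraries the difference was 1.00. In the 3 ATF4 KO borrelidin libraries below the gap the level did not exceed 61.5 CPM.

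**Figure D2:**
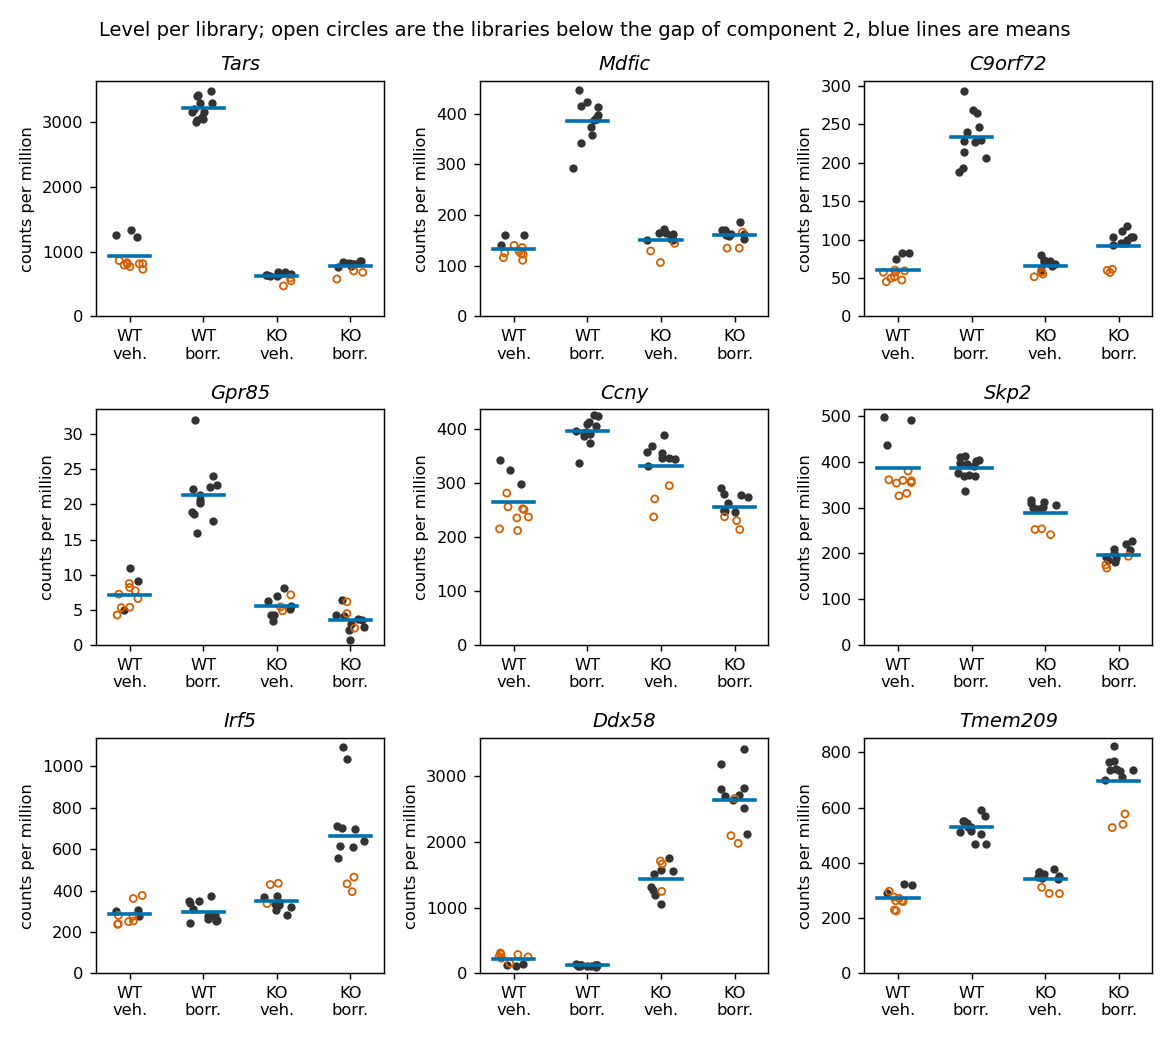
Level in CPM (vertical, linear from 0) of 9 segment genes in each library of the 4 groups, with blue lines at the group means and open circles for the 14 libraries below the gap of the second component. The wild type borrelidin libraries of Tars, Mdfic and Gpr85 lie above all other libraries, Skp2 drops in ATF4 KO, and Irf5 and Ddx58 rise in ATF4 KO alone.

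Anp32b, Osgin2 and Klf4 also rose more in wild type in all 3 fits. Anp32b, a histone chaperone, rose from 1220, 1420 and 2214 CPM to 2686, 2798 and 3476 CPM in wild type, with no overlap, and lay between 1161 and 2180 CPM in ATF4 KO. Its difference was 0.75 ± 0.15 with all libraries and 0.33 without the 14. Osgin2 and Klf4 rose in both lines. Osgin2 had responses of 1.43 in wild type and 0.81 in ATF4 KO (difference 0.62 ± 0.13, and 0.33 with the block), and in both lines all borrelidin libraries lay above all vehicle libraries. Klf4, a stress-inducible zinc finger transcription factor, had responses of 1.35 and 0.64 (difference 0.71 ± 0.17). At low level, Cftr, a chloride channel, rose from 0 to 3.46 CPM in wild type vehicle to 4.96 to 9.74 CPM in wild type borrelidin, and its ATF4 KO libraries stayed at 0.31 to 3.74 CPM. Cdh10, a cadherin, rose by 1.70 in wild type and had a response of -0.28 in ATF4 KO that was not called. The pseudogene Gm8341 had a difference of 2.06 ± 0.25 with all libraries and 1.35 without the 14, when its responses were opposite, and its reads cannot be told apart here from those of a near-identical parent gene.

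Tars, Mdfic and Anp32b each match a short pattern near their start of transcription, with different letters at its free position (N). The matches read TTGCATCA in Tars, TTACATCA in Anp32b and TGATGAAA (the pattern on the opposite strand) in Mdfic. In the promoter window, 250 bases before to 50 after the start of transcription (RefSeq, GRCm38.p6), the letters TTNCATCA, the core of the element that ATF4 binds together with C/EBP proteins, occur on either strand in 3 of the 29 genes that have a window among the 50 called in all 3 fits. All 3 have a positive difference, as do 18 of the 29. The element given in the paper is stricter, with adenine or guanine before these letters and guanine or thymine at N. Of the 3 windows only that of Tars fits it. Mdfic, read on the opposite strand, has cytosine before the letters. Anp32b has cytosine there too, and adenine at N. How often the stricter element occurs was not counted. Over the classes with all libraries, the letters occur in 3 of 37 genes with a window that rose more in wild type (8.11%), which are the same 3 genes. They occur in 2 of 26 with the larger ATF4 KO response (7.69%), Mmp10 and Gcc1. Of the shared genes 1 of 47 holds them (2.13%), and of the opposite genes 0 of 14. Of all genes with windows 4.51% hold these letters, and of the 233 tested segment genes that matched a window 3.86% do. The letters GAAANNGAA, as in elements bound by interferon regulatory factors, occur in 6 of the same 29 and in 9.76% of all genes with windows. The 3 windows are printed because they belong to genes whose difference held and because they hold these letters, which the capitals mark. The other windows of the 29 genes hold no match and are not printed. The match starts at position -15 in Tars, 9 in Mdfic and -111 in Anp32b, counted from 0 at the first transcribed base. The windows are chr15:11399609-11399908 on the minus strand for Tars, chr6:15720411-15720710 on the plus strand for Mdfic and chr4:46450676-46450975 on the plus strand for Anp32b.
Tars: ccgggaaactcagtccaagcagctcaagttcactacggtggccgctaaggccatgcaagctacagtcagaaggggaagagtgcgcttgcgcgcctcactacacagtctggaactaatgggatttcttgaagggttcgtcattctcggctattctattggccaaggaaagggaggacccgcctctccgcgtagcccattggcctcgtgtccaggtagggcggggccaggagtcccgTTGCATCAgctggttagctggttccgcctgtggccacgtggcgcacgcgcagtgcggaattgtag
Mdfic: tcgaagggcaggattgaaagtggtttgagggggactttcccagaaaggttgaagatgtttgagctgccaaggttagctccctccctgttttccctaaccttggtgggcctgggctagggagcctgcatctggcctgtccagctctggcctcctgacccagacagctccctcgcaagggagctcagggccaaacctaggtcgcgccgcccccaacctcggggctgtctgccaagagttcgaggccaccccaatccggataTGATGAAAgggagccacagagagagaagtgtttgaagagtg
Anp32b: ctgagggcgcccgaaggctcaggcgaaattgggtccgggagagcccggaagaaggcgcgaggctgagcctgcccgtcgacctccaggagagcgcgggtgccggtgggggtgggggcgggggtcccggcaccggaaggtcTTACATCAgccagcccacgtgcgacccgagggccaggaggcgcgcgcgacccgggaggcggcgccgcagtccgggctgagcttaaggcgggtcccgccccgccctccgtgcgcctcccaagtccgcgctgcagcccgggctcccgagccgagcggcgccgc

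In wild type alone Dnajb5, Fancg and Arhgef39 fell in all 3 fits. Dnajb5, a co-chaperone of the Hsp40 family, had 40.3, 60.4 and 78.9 CPM in wild type vehicle and 27.6, 35.1 and 41.6 CPM in wild type borrelidin. Its ATF4 KO libraries had 49.1, 53.8 and 67.6 CPM and then 49.5, 62.0 and 79.1 CPM. The 95% interval of the difference was -1.27 to -0.74 (edgeR adjusted p = 5.4e-08), and the difference was -0.53 without the 14 libraries. Fancg, of the Fanconi anaemia repair pathway, had responses of -0.68 and -0.08, and Arhgef39 of -0.98 and -0.12. With the block the difference of Fancg was -0.32 (-0.60 with all libraries) and that of Arhgef39 -0.57 (-0.86). Their wild type groups did not overlap.

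Other genes with a larger wild type response lost the call without the 14 libraries. Sec61b, of the ER translocon, had a difference of 1.24 with all libraries and 0.36 without them, and Tomm5, of the mitochondrial import pore, 1.66 and 0.47. Npr2, a natriuretic peptide receptor, had -1.02 and -0.24, Pnisr -0.98 and -0.22, and Abca1, a cholesterol exporter, -1.16 and -0.17. With the library set as a block Tomm5 (0.59) and Npr2 (-0.26) were called, but as larger in ATF4 KO and in wild type, respectively. Within the wild type vehicle group Tomm5 ranged from 48.5 to 313 CPM and Pnisr from 277 to 732 CPM. In both, the wild type vehicle libraries spanned a wider range on the log2 scale than the response of wild type.

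Skp2, Smo, Nol6, Impdh1, Ywhaz, Pnrc1, Matn2 and Msantd3 fell in ATF4 KO and were not called in wild type with all libraries, and their difference was called in all 3 fits. Skp2, the F-box protein by which a ubiquitin ligase picks cell cycle inhibitors, was at 326, 360 and 498 CPM in wild type vehicle and 337, 393 and 414 CPM in wild type borrelidin. The ATF4 KO libraries went from 241, 299 and 316 CPM to 168, 193 and 228 CPM. The ATF4 KO groups did not overlap, and the wild type borrelidin range lay inside the vehicle range. The responses were 0.00 and -0.56, and the difference was 0.56 ± 0.09 (edgeR adjusted p = 1.2e-05). Without the 14 libraries the wild type response was -0.30 and the difference 0.30.

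Smo, the signal transducer of the Hedgehog pathway, had responses of 0.04 and -0.58, and its difference was 0.35 without the 14 libraries, against 0.62 with all. Impdh1, an enzyme of guanine nucleotide synthesis, had 0.07 and -0.44, and Ywhaz, a 14-3-3 protein, 0.13 and -0.42. Their differences were 0.52 and 0.55 with all libraries, and 0.32 and 0.37 without the 14. That of Msantd3 was 0.78 with all libraries and 0.45 with the block. Matn2, an extracellular matrix protein, went from 44.8 to 69.5 CPM with vehicle to 24.3 to 41.4 CPM with borrelidin in ATF4 KO, with no overlap. Nol6, a nucleolar factor of ribosome biogenesis, had 404, 482 and 563 CPM in wild type vehicle and 475, 508 and 630 CPM in wild type borrelidin. The ATF4 KO libraries held 282, 310 and 375 CPM and then 184, 224 and 303 CPM. Its difference was 0.56 ± 0.09 and was slightly larger without the 14 libraries (0.68), unlike that of Skp2 and Smo.

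Irf5, Tmem67, Epc1, Rnf19a and Zfp438 rose in ATF4 KO more than in wild type in all 3 fits. Irf5, an interferon regulatory factor, was at 237, 278 and 376 CPM in wild type vehicle and 244, 279 and 375 CPM in wild type borrelidin. In ATF4 KO it went from 281, 337 and 435 CPM to 395, 627 and 1094 CPM. The wild type ranges overlapped almost wholly, and in ATF4 KO the 3 borrelidin libraries below the gap were the lowest of that group. The difference was -0.86 ± 0.17 (edgeR adjusted p = 0.00014) and -1.13 without the 14 libraries. Within the 3 against 3 ATF4 KO libraries below the gap, the response of Irf5 was 0.16, against 0.92 in all. Exons of Tnpo3 overlap 14.1% of those of Irf5.

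Tmem67, a protein of the ciliary transition zone, went from 47.7, 63.3 and 84.3 CPM to 94.6, 114 and 128 CPM in ATF4 KO, with no overlap, and lay between 29.7 and 59.5 CPM in wild type. Its difference was -0.84 ± 0.13, and -0.90 without the 14 libraries. Epc1, a subunit of the NuA4 acetyltransferase complex on chromosome 18, had responses of 0.09 and 0.56 (difference -0.47 ± 0.08), with no overlap in ATF4 KO. Rnf19a, a ubiquitin ligase, had 0.11 and 0.59. Zfp438 had a difference of -0.63, and -0.94 with the block.

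Gpr85, Ccny, Glipr2, Trp53inp1 and Arhgap42 moved in opposite directions in all 3 fits. Gpr85, an orphan G protein-coupled receptor, rose from 4.26, 7.23 and 10.9 CPM to 15.95, 20.97 and 31.9 CPM in wild type, with no overlap. Without ATF4 it went from 3.42, 5.41 and 8.10 CPM to 0.64, 3.58 and 6.45 CPM. The difference was 2.20 ± 0.27 (1.66 to 2.74, edgeR adjusted p = 1.1e-08), and 2.08 without the 14 libraries.

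Ccny, a membrane-tethered cyclin, went from 212, 252 and 342 CPM to 337, 395 and 425 CPM in wild type and from 237, 345 and 389 CPM to 214, 249 and 290 CPM in ATF4 KO. The difference was 0.96 ± 0.10 (edgeR adjusted p = 5.4e-10). Glipr2 had responses of 0.72 and -0.36, and its difference was 1.08 with all libraries and 0.62 with the block. Trp53inp1, a stress-induced protein that acts in autophagy and the p53 response, had 0.55 and -0.37. It started lower in wild type (gap -1.15 under vehicle), and the gap under borrelidin was -0.23. Arhgap42 fell by 0.22 in wild type and rose by 0.22 in ATF4 KO.

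Ddx58 and Trim14, of the RIG-I pathway of antiviral sensing, were also opposite with all libraries and lay far apart between the lines. Ddx58, which encodes RIG-I, was at 119, 245 and 310 CPM in wild type vehicle and 93.4, 124 and 137 CPM in wild type borrelidin. In ATF4 KO it was at 1061, 1512 and 1754 CPM with vehicle and 1974, 2674 and 3409 CPM with borrelidin. No wild type library reached an ATF4 KO library in either condition. The difference was -1.72 ± 0.18 (edgeR adjusted p = 1.2e-10) and -1.06 without the 14 libraries, when the wild type response was -0.09. Trim14 had a difference of -2.38 ± 0.29 (-1.58 without the 14 libraries) and a gap of -2.72 under vehicle and -5.10 under borrelidin. Exons of Gm16731, Gm22247 and Nans overlap 38.0% of those of Trim14.

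**Figure D3:**
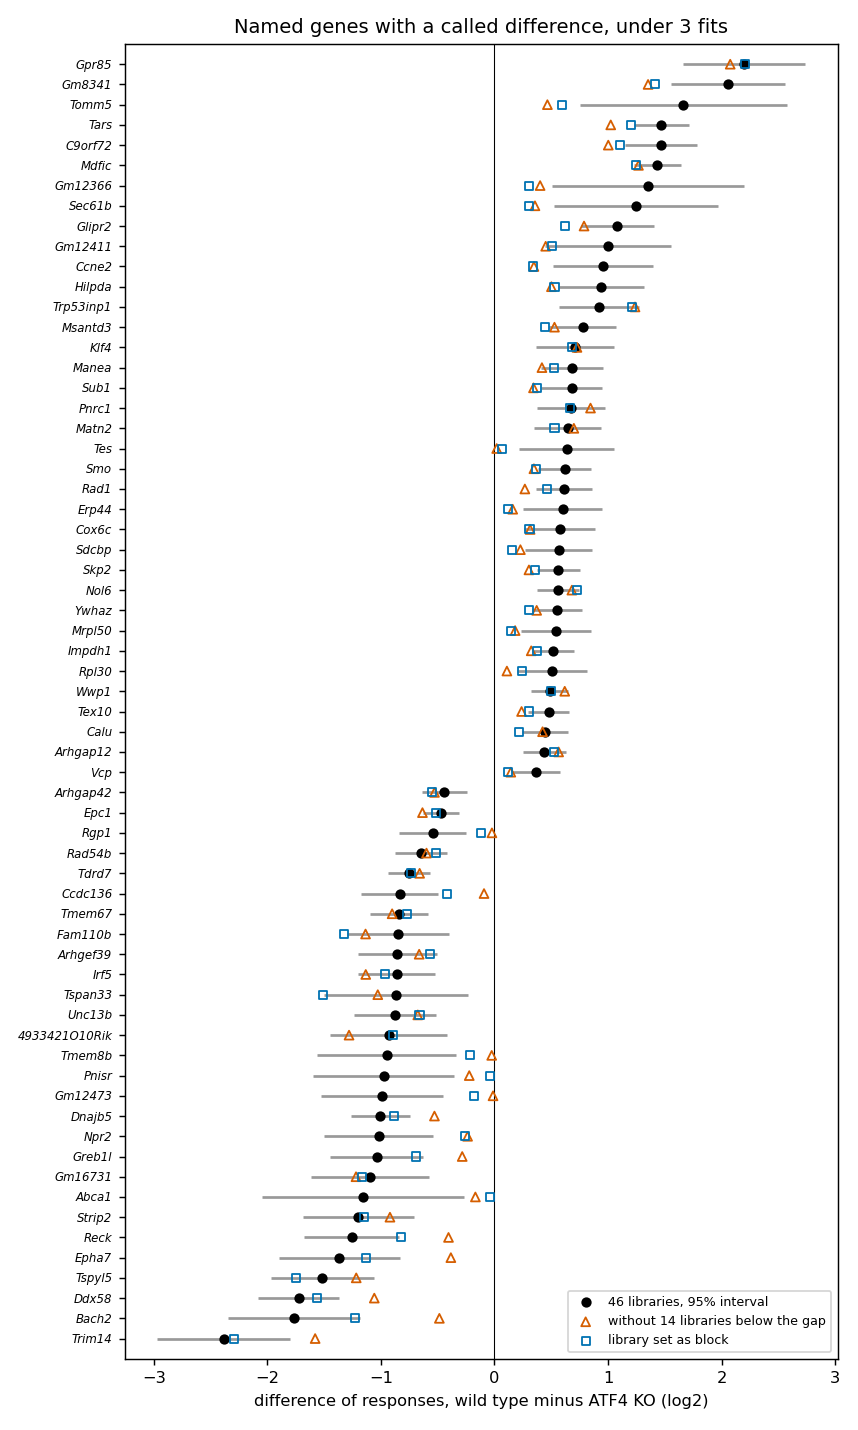
Difference of responses, wild type minus ATF4 KO (horizontal, log2), of the named genes with a called difference and a mean of at least 3 log2 CPM. Black points with 95% intervals are from 46 libraries, orange triangles are without the 14 libraries below the gap and blue squares are with the library set as a block. Mdfic, Gpr85 and Tmem67 change little, whereas Tomm5, Sec61b, Npr2 and Bach2 move towards 0.

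Where the lines stood apart was counted for the 171 genes with a called difference. In 86 the gap between the lines was called under borrelidin only, as for Mdfic, Smo and Irf5. In 33 it was called under vehicle only, as for Trp53inp1 and Matn2. In 37 it was called under both conditions, as for Tars and Ddx58, and in 15 under neither. Over all 390 segment genes the gap was called for 160 under vehicle and for 218 under borrelidin. The shares over all rows were not counted for any of these counts of gaps, so they have no background to be set against. The gap, the responses and the difference come from the same libraries and are not independent of each other.

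**Figure D4:**
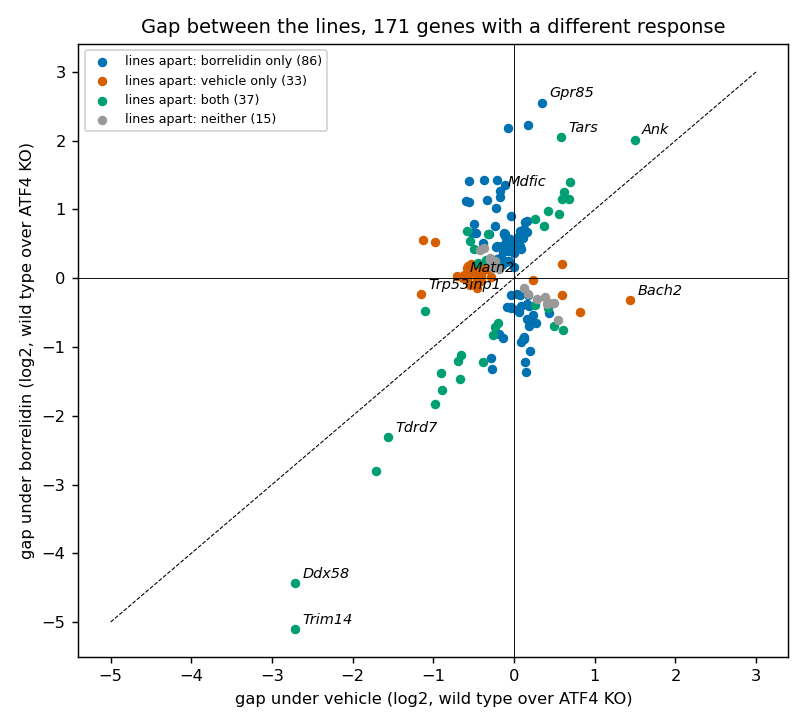
Gap between the lines under borrelidin (vertical) against the gap under vehicle (horizontal), as log2 of wild type over ATF4 KO, for the 171 genes with a called difference, coloured by the condition in which the gap was called. Genes above the dashed line have a positive difference of responses. Ddx58 and Trim14 are at the lower left, far below 0 in both conditions.

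Shared responses were seen up and down. Tmem209, of the nuclear envelope, went from 226, 272 and 323 CPM to 469, 531 and 590 CPM in wild type and from 289, 350 and 378 CPM to 528, 735 and 823 CPM in ATF4 KO. The groups did not overlap in either line, and the responses were 0.95 and 1.03 (difference -0.08, 95% interval -0.28 to 0.11). The call was larger in ATF4 KO without the 14 libraries (difference -0.28). Cep126, a centrosomal protein, had responses of 0.98 and 1.07 with no overlap in either line and stayed shared in the 3 fits. Zfp622, a ribosome assembly factor, had 0.85 and 0.79, but with the block its difference was -0.32 and it was called as larger in ATF4 KO.

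Cav1 and Cav2, the coat proteins of caveolae, fell in both lines. Cav1 went from 318, 436 and 486 CPM to 248, 271 and 313 CPM in wild type and from 488, 628 and 804 CPM to 352, 402 and 423 CPM in ATF4 KO. The groups did not overlap in either line, and the difference was 0.11 (-0.09 to 0.30). Without the 14 libraries the difference was 0.35 and was called. Galnt12, which starts O-glycosylation, had responses of -0.70 and -1.05, and Dap of -0.57 and -0.69. In 13 shared genes the whole 95% interval of the difference lay within 0.3 of 0 on the log2 scale, the narrowest being Nfx1 (-0.16 to 0.13), Rnf20 (0.00 to 0.29), Thoc1 (-0.07 to 0.27) and Ufl1 (-0.19 to 0.17). None of these 4 was in the shared class without the 14 libraries, since one or both responses were no longer called, and with the block Ufl1 was not. With scaling factors from the segment genes alone Tmem209, Nfx1, Rnf20 and Ufl1 were no longer in the shared class.

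Counted by function, among genes of tRNA charging and processing 4 of 4 tested had a positive difference, Tars and Nol6 in all 3 fits. Nol6 is also counted under ribosome biogenesis, and with all libraries it fell in ATF4 KO and was not called in wild type. Pop1 and Hint2 did not hold. Of the autophagy and lysosome genes 4 of 10 were positive and 2 negative, and C9orf72 and Trp53inp1 held. Of the stress-inducible genes 5 of 7 were positive and 1 negative (Nr4a3, -1.31, not called at -0.57 without the 14 libraries), with a median difference of 0.71. Of the antiviral and inflammatory genes 6 of 11 were negative and 1 positive (Otulin, 0.50, not called at 0.09 without the 14 libraries), with a median of -0.49, and Ddx58, Irf5, Tdrd7 and Ripk2 held. The background for these counts and those below is the share of all segment genes. Of these, 43.8% were called, 28.5% positive and 15.4% negative, and 50 of the 390 held.

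Of the ERAD and proteasome shuttling genes 4 of 8 were positive (Vcp, Rad23b, Sec61b and Erp44), and none held. Of the ubiquitin and UFM1 enzymes 7 of 17 were positive and 2 negative, and Skp2, Wwp1 and Rnf19a held. Of the chaperones 4 of 6 were positive and Dnajb5 negative. Of the mitochondrial genes 6 of 12 were positive, and none held. The ribosome biogenesis and RNA processing genes had 6 of 13 positive, of which Nol6, Snd1 and Pabpc1 held. The single ribosomal protein gene tested, Rpl30, was positive (0.51) and did not hold.

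Of the metabolic enzymes 7 of 12 were positive and 1 negative, with Impdh1 alone held. Of the Golgi and vesicle transport genes 3 of 10 were positive and 3 negative, and none held. Of the actin and adhesion genes 3 of 15 were positive and 4 negative, with Arhgap12 and Arhgap42 held. With scaling factors from the segment genes alone Arhgap12 was not called (0.28, edgeR adjusted p = 0.057). The extracellular matrix and protease genes had 4 of 8 positive, among them the collagenase Mmp13 (1.80), and 1 negative, the protease inhibitor Reck (-1.26), and Matn2 and Ank held. Neither Mmp13 (1.20, edgeR adjusted p = 0.062) nor Reck (-0.40, edgeR adjusted p = 0.18) was called without the 14 libraries. Of the cell cycle and replication genes 3 of 9 were positive, with Ccne2 (cyclin E2) and Skp2 held. Ccne2 had a difference of 0.96 with all libraries and 0.35 without the 14, when the larger response was that of ATF4 KO. Of the DNA damage and repair genes 2 of 6 were positive and 2 negative.

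Among membrane receptors and caveolins, Smo was positive and Npr2 negative of 8. Of the Hippo pathway genes, Ywhaz was positive of 3, and Yap1, the effector of the pathway, had a difference of 0.22 that was not called. Of the transcription factors, Klf4 was positive and Bach2, Nr4a3 and Zeb1 negative of 8, and Klf4 alone held. Bach2 had -1.76 with all libraries and -0.49 without the 14 (edgeR adjusted p = 0.36). Of the chromatin regulators Epc1 alone was called of 5, and of the centrosome and cilium genes Tmem67 alone of 4.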

How the data were processed

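RNA of 46 samples was sequenced, and the authors deposited raw read counts, unnormalized and per library, for mouse gene identifiers. HISAT2, HTSeq and build mm10 come from the submitters' processing notes. The strand setting is not given in the sources used here. Rows that name no gene held 89.1% of the reads on average and were left out, 69.0% being reads with no feature. Genes were located with GENCODE M21, and names were used inside 5 segments only.

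Group means of the 4 groups were fitted by quasi-likelihood in edgeR 4.0.16 (R 4.3.3) after filterByExpr and TMM scaling, and CPM values are TMM-normalized. This takes the place of the linear model of the study, which related transcripts to ATF4 activity. The difference of responses is the interaction of genotype and treatment, which is another quantity. Its calls are therefore not to be set against those of the study. DESeq2 1.42.0 and limma 3.58.1 were alternatives to edgeR here. The test was checked on simulated counts only, drawn independently and without library sets, so this check does not cover the split of the libraries. The genes, lists and library sets were chosen with earlier results of these data known. Named genes followed a rule of level (at least 3 log2 CPM), class and size of the difference. To these were added the 2 members of each list of functions with the smallest p of the difference, at any level. Mmp13 entered in this way, at a mean of 2.78 log2 CPM. Genes outside the rule were named after their values were seen, where they kept their call in the 3 fits (such as Fancg, Cftr and Cdh10) or stand beside a count of a list. The 21 lists of functions and 5 of markers give counts only. Replicate numbers were not taken to pair the libraries. No 2 libraries of a group agreed within sampling noise (chi-square over degrees of freedom of at least 1.89).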

Additional observations from a re-analysis of the deposited data

Results flagged for a closer look

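The difference between the lines itself was tested for every segment gene, and 2 passed 1e-10, against 0.501% of all rows. For Tars the wild type response exceeded that of ATF4 KO by 1.47 on the log2 scale, and for Mdfic by 1.43. Groups of 11 or 12 libraries were not searched for single outlying samples.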

How the results depend on the processing

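The median ratio normalization, scaling from the segment genes alone, DESeq2, limma voom and the replicate block left the counts of called segment genes within 1.5 times those reported. With the replicate block 196 genes had a different response, and with the block within genotype 201, against 171, and the named genes lost no call under either. Deviations of same-numbered vehicle and borrelidin libraries from their group means correlated over 0.1 in 11 of 11 ATF4 KO pairs (0.18 to 0.78), but within each library set in only 2 of 11 (-0.22 to 0.12), and in the other comparisons not in every pair. Among the 83 named genes, 30 lost the call of the difference without the 14 libraries and 15 with the library set as a block, none with a called difference in both fits changed sign, and 4 gained a call in each. These were Cav1, Colec12, Gm5874 and Tmem209 without the 14 libraries, and Gm5874, Smim8, Tmem209 and Zfp622 with the block. Colec12 went from -0.35, not called, to 0.78 (edgeR adjusted p = 0.0096).

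Without the 14 libraries, 39 differences were positive and 36 negative (75 in all, against 9.68% of all rows). In that fit 107 genes were called for the wild type response and 106 for the gap under vehicle. The classes with the larger wild type response and with opposite signs held 14 and 11 genes. With the library set as a block, 52 differences were positive, 153 genes were called for the wild type response, and 32 had the larger wild type response. Without a filter on low counts, 29 genes had the larger ATF4 KO response and 7 were opposite. At a threshold of 1e-10, 2 differences remained, against 0.501% of all rows. In the ATF4 KO libraries below the gap alone (added after the data were examined), 59 genes were called for the response, with fewer libraries. Where no share of all rows stands beside a count in this paragraph, it was not counted, so that count has no background. The cause of these changes was not tested beyond the libraries named. The gap between the lines could not be fitted with the block within genotype. Depth limits genes of few CPM such as Cftr and Cdh10.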
